A study of Mus musculus with 6 samples.

Results

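The 3 cultures of embryonic mouse heart cells that received negative siRNA are described here, out of 6 samples in the series, as the level of every gene and as its spread between cultures. They were identified by their label, and the other 3 samples enter no value below. These cultures and the gene lists were chosen with earlier results of these data known. Cells came from the heart ventricles of CD-1 embryos at embryonic day 13.5, with the ventricles of a litter pooled before digestion. Cells that did not stick to an uncoated flask were kept, grown for 48 h and transfected with 12 nM AllStars negative control siRNA by RNAiMAX. At 72 h they were detached, stained for VCAM1 and collected on a magnetic column, and poly(A) RNA was sequenced as single reads. CD-1 is an outbred stock, and the labels do not say whether the 3 cultures came from 3 litters or from a single preparation. The spread between them is therefore a spread between samples, which may be partly technical.

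Ventricular cardiomyocytes of this stage contract with a fetal set of sarcomere proteins, still divide, and sit among endocardium, epicardium, fibroblast precursors, smooth muscle and a few resident macrophages. VCAM1 is a cell adhesion protein of the embryonic myocardium that is used to sort cardiomyocytes, and other cells of the heart, epicardium included, can carry it. Cells held in a dish meet serum, a stiff surface and their own oxygen use, and double-stranded RNA such as an siRNA can be read by innate sensors that switch on interferon-stimulated genes.

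Levels are given as CPM, the counts of a gene after all counts on genes in its library were scaled to a sum of 1000000, in cultures 1, 2 and 3 and always in that order. Apart from a ranking by CPM, genes are set against each other only as CPM per kb of exon (CPM/kb), with the mean and SD over the 3 cultures. The spread of a gene is its highest CPM divided by its lowest, with an exact 95% interval that covers counting error only. A gene was called different at a ratio of 2 or more, and alike where the highest culture was under 25% above the lowest, among the 13741 genes with a mean of at least 1 CPM. No test was made, since 3 cultures of a single group have nothing to be tested against.

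The libraries held 35896018, 31480073 and 27852412 counts on genes, so that 1 count was worth 0.0279, 0.0318 and 0.0359 CPM. Reads outside annotated exons took 17.5%, 14.6% and 17.1% of the reads placed once. Of 43629 genes listed, 27665 had a count in some culture and 20219 in all. All 37 genes of the mitochondrial genome were listed at 0 in every culture, so that this part of energy metabolism was not measured here. Across genes, log2(CPM + 1) had a Pearson correlation of 0.982 between cultures 1 and 2, 0.990 between 1 and 3, and 0.983 between 2 and 3. Counts of each pair lay further apart than sampling noise (chi-square per degree of freedom 36.7, 18.05 and 33.7), so no library was a copy of another.

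Matrix genes led the ranking by CPM in these cells. Col1a1, a chain of type I collagen on chr11:94936224-94953042 (GRCm38), gave 20444, 30121 and 19966 CPM. Fn1, which encodes fibronectin, gave 21749, 19844 and 22538 CPM. Col1a1 was highest in culture 2, at a ratio of 1.51 (95% interval 1.504 to 1.51), while Fn1 lay within a ratio of 1.14. Of the 15 genes of highest mean CPM, 11 encode matrix or matrix-binding proteins (Col1a1, Fn1, Col1a2, Col3a1, Sparc, Col4a1, Thbs1, Col5a2, Bgn, Col4a2 and Hspg2). The other 4 are Actb and Flna, of the actin skeleton, and the non-coding genes Gm23935 and Gm26917. CPM is not scaled for length, so this ranking favours long genes. Col1a2, Col5a2, Bgn, Col4a2 and Hspg2 were not among the 15 highest per kb.

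Genes with under 300 bases of exon, Gm23935 among them, were left out of the order per kb. That order was Col1a1 at 3582 ± 873 CPM/kb (SD, n = 3), then Gm42418, Igfbp7 and Fn1 (1829 ± 119 CPM/kb). Sparc (1819 ± 114) and the actins Acta2 (1712 ± 336) and Actb (1621 ± 94.1) followed. Igfbp7, an IGF-binding protein of the matrix, varied most among these, with 1416, 2477 and 3047 CPM. It was lowest in culture 1 and highest in culture 3. Tagln, Lgals1, Tmsb4x and Serpinh1, an actin-binding protein, a galectin, an actin monomer binder and a collagen chaperone, stood between 1024 and 1097 CPM/kb. Among neighbours in this order, Fn1 and Sparc did not differ beyond their SD, and neither did Acta2 and Actb.

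Some of the highest levels belonged to genes that may not stand for messenger RNA. Gm26917 and Gm42418 lie side by side on chr17:39843013-39846341 and chr17:39846958-39848788, and the second overlaps Rn18s-rs5, a ribosomal RNA copy, in RefSeq. They held 4259.9, 4468 and 4779.5 CPM and 4045, 3882 and 4608 CPM. Both were alike in the 3 cultures. Gm23935, annotated as a miRNA of 57 bases on chr16:11144125-11144181, held 4591, 6812 and 9289 CPM and was highest in culture 3. Protein-coding genes took 95.9% ± 0.314 (SD, n = 3) of all counts, and the 10 leading genes took 9.13%, 11.4% and 9.82%. It took 786, 713 and 739 genes to make up 50% of the counts.

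The label calls these cells cardiomyocytes, and the sarcomere was read in every culture. Of 32 sarcomere genes, 31 passed 1 CPM. Tpm1, the tropomyosin of the thin filament, led them at 349 ± 47.8 CPM/kb, followed by Actc1, the cardiac actin (240.0 ± 40.9), Myl7, the atrial regulatory light chain (184 ± 37.9), and Ankrd1, a stretch-sensitive sarcomere protein (155 ± 17.9). The motor Myh6, alpha myosin heavy chain, held 567, 799 and 893 CPM. It was lowest in culture 1. Myh7, the beta chain that marks the fetal ventricle, held 45.1, 161 and 58.5 CPM. Culture 2 stood above the others for this gene, at a ratio of 3.57 (95% interval 3.37 to 3.78). Per kb, Myh6 exceeded Myh7 in every culture, with 84.3, 119 and 133 against 5.24, 18.7 and 6.79 CPM/kb.

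Thin and thick filament partners stood lower per kb. Tnnt2 held 102 ± 18.4 CPM/kb and Tnnc1 38.7 ± 6.83, both troponin subunits. The fetal troponin I Tnni1 (12.4 ± 5.49 CPM/kb) and the adult form Tnni3 (8.83 ± 2.75) did not differ beyond their SD. The ventricular light chains Myl2 (40.9 ± 11.2) and Myl3 (23.3 ± 10.8) stood below Myl7 (184 ± 37.9) in tissue labelled as ventricle. Giant Ttn gave 153, 253 and 209 CPM but only 1.76 ± 0.4298 CPM/kb over its long exons. Skeletal muscle isoforms were near absent, with 4 of 18 above 1 CPM.

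Sarcomere genes tended to be highest in culture 2 and lowest in culture 1. Culture 2 was highest for 25 of the 31 and culture 1 lowest for 23. Over all genes tested, culture 2 was highest for 34.7% and culture 1 lowest for 26.5%. A ratio of 2 or more was reached by 8 of the 31, beside 7.47% of all genes tested. These were Myh7, Myh7b, Myl3, Acta1, Tnni1, Tcap, Des and Xirp2. Des, the muscle intermediate filament, held 194, 418 and 205 CPM, and Myl3 held 25.5, 69.6 and 48.00 CPM. Culture 2 was highest for both. The median ratio of the 31 genes was 1.60, and that of all genes tested was 1.24. Without culture 2, 2 of the 31 differed by 2 times or more.

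Calcium handling genes were also mostly highest in culture 2. Atp2a2, the pump that refills the sarcoplasmic reticulum, held 697, 787 and 760.3 CPM (123 ± 7.63 CPM/kb). Jph2, which ties that store to the surface membrane, held 369, 483 and 473 CPM, and the release channel Ryr2 held 50.2, 76.3 and 76.9 CPM. Atp2a2 was alike in the 3 cultures, while Ryr2 was lowest in culture 1. Of 15 calcium genes tested, 4 were alike and 2 differed by 2 times or more, beside 51.5% and 7.47% of all genes. These 2 were Hrc, a calcium store protein, and Cacna1h, a T-type channel with 3.57, 15.5 and 6.46 CPM. Culture 2 was highest for 12 of the 15, beside 34.7% of all. Among conduction genes, Gja1, the main gap junction protein, held 208, 199.9 and 215 CPM and was alike in all, whereas Kcne1, a potassium channel subunit, held 1.06, 6.07 and 1.11 CPM and stood out in culture 2.

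Cardiac transcription factors had a median ratio of 1.35, beside 1.60 for the sarcomere and 1.24 for all genes tested. Gata4, a zinc finger factor of heart development, held 268, 254 and 267 CPM, and Srf, which drives muscle and actin genes, held 161, 158 and 162 CPM. Neither varied by more than a ratio of 1.06. Per kb, Gata4 (67.4 ± 2.08 CPM/kb) led 31 listed factors, ahead of Srf (55.4 ± 0.812), Tbx20 (49.4 ± 15.2) and Gata6 (48.1 ± 6.503), and neighbours among the last 3 did not differ beyond their SD. Nkx2-5, the homeobox factor of the myocardium, held 13.6, 15.8 and 13.4 CPM and only 8.31 ± 0.773 CPM/kb. Of 29 factors tested, 10 were alike (51.5% of all genes were) and 4 differed by 2 times or more (7.47% of all), Isl1, Irx4 and Hopx among them. Tbx20, a T-box factor, held 778, 415 and 586 CPM and was lowest in culture 2. Natriuretic peptides were modest, with Nppa at 34.5, 57.5 and 40.4 CPM and Nppb at 5.82, 7.47 and 7.899 CPM, and their clearance receptor Npr3 at 20.7, 8.35 and 17.8 CPM was lowest in culture 2.

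Several epicardial and mesothelial genes stood at levels within the range of the leading sarcomere genes. Of these, Upk1b (179 ± 27.4 CPM/kb), Msln (166 ± 4.41), Upk3b (162 ± 28.6) and Lrrn4 (103 ± 17.3) stood beside Myh6 (112 ± 24.9) and Tnnt2 (102 ± 18.4). Upk1b and Msln exceeded both in every culture, while Tpm1, Actc1 and Myl7 had higher means than Upk1b. Wt1, the epicardial zinc finger factor, held 125, 136 and 133 CPM and was alike in the 3 cultures. Of 11 epicardial genes found, all passed 1 CPM and 1 differed by 2 times or more, beside 7.47% of all genes (Krt8, a keratin, at a ratio of 2.02 that falls below 2 with TMM scaling). Vcam1 itself, the sort antigen, held 276, 275 and 351 CPM (33.9 ± 4.904 CPM/kb). The study had earlier found by flow cytometry that nearly all cells sorted this way were cardiomyocytes, and levels of bulk RNA do not count cells. In bulk RNA, fewer cells of a type and less RNA per cell cannot be told apart.

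Fibroblast markers had a median of 60.3, 57.8 and 61.5 CPM/kb over 12 genes, against 38.3, 29.6 and 25.8 for 11 epicardial genes and 7.88, 15.4 and 8.88 for the 32 sarcomere genes. Tcf21, a factor of epicardium-derived fibroblasts, held 187, 168 and 207 CPM, and Postn, a matrix protein, held 544, 649 and 569 CPM. Of the 12, Dpt alone differed by 2 times or more. Of 10 smooth muscle and pericyte genes tested, 5 did, beside 7.47% of all genes. Acta2 and Tagln were high everywhere, while Myh11, the smooth muscle myosin, held 5.71, 31.4 and 8.26 CPM and Cnn1, calponin, held 84.4, 245 and 102 CPM. Culture 2 stood above both others for Myh11 (a ratio of 5.49 (95% interval 4.72 to 6.41)) and for Cnn1 (a ratio of 2.91 (95% interval 2.79 to 3.03)). Rgs5, a pericyte gene, went to culture 1 with 6.101, 1.75 and 2.41 CPM.

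**Figure D1:**
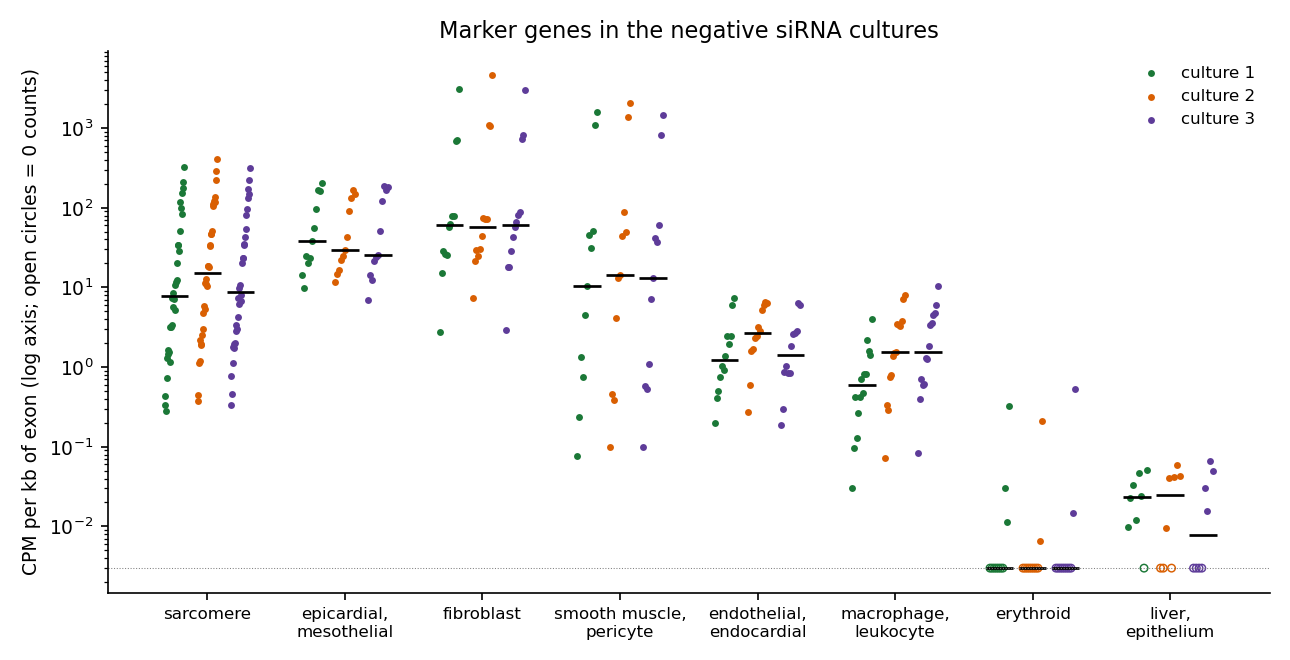
CPM per kb of exon on a log axis for the found members of 8 marker lists, with 1 point per gene and culture, the median of each culture as a black bar and open circles for genes at 0 counts. The medians of the fibroblast list lie at 60.3, 57.8 and 61.5, above those of the sarcomere list at 7.88, 15.4 and 8.88, and the erythroid medians lie at 0.

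Endothelial and macrophage genes were low, and each singled out a culture. The 12 endothelial markers summed to 173, 231 and 179 CPM. Culture 2 was highest for 11 of them, beside 34.7% of all genes tested, and 7 differed by 2 times or more (7.47% of all genes did). Cdh5, the junction cadherin of endothelium, held 10.3, 25.4 and 12.1 CPM, and Emcn, an endothelial sialomucin, held 2.702, 8.64 and 4.63 CPM. Flt1, a VEGF receptor, was alike at 81.4, 87.6 and 87.3 CPM. Without culture 2, 0 of the 12 differed by 2 times or more.

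Macrophage genes were lowest in culture 1. Of 14 listed, 12 passed a mean of 1 CPM. Each of these differed by 2 times or more (7.47% of all genes did) with culture 1 lowest (26.5% of all). The others were Tyrobp, at 0.279, 0.921 and 0.862 CPM, and Aif1, at 0.641, 0.445 and 1.08 CPM, which was lowest in culture 2. The list summed to 22.8, 59.9 and 63.9 CPM. C1qa, a complement subunit made by resident macrophages, held 1.48, 7.402 and 6.18 CPM, Csf1r, their growth factor receptor, held 4.04, 8.77 and 7.396 CPM, and Cx3cr1, a chemokine receptor, held 0.585, 3.399 and 2.69 CPM. Cultures 2 and 3 lay close to each other in these genes. Without culture 1, 0 of the 12 differed by 2 times or more. For 9 of the 12, culture 1 lay 2 times or more below both others, as it did for 0.611% of all genes tested. Laptm5, a lysosomal protein of blood cells, and Lbp, which binds bacterial lipopolysaccharide, were among the other genes lowest there, with 2.31, 6.48 and 6.43 CPM and 7.08, 27.2 and 51.2 CPM.

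Blood, liver and surface epithelium left almost no reads. The 7 listed globin genes had 0 counts in all libraries, where 3 counts would be 0.0836, 0.0953 and 0.108 CPM. Reads that map to more than 1 place were given to no gene, and 4 of the 7 globins share over 50% of their 75-base windows with another gene, which limits that statement to the other 3 (Hba-x, Hbb-bh1 and Hbb-y). Alas2, an erythroid enzyme of heme synthesis, reached 0.7800, 0.508 and 1.29 CPM. The 8 liver and epithelium genes, Alb and Epcam included, summed to 0.474, 0.445 and 0.251 CPM.

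Over all genes tested, 1026 of 13741 differed by 2 times or more (7.47%). The counting interval of every such ratio lay above 1, which the floor of 1 CPM and the limit of 2 largely fix in advance. At the other end, 7071 genes (51.5%) were alike. The share that differed fell with level, from 22.1% of genes at 1 to 5 CPM, to 6.56% at 5 to 20 CPM, 2.59% at 20 to 100 CPM and 2.13% at 100 CPM or more. The biological coefficient of variation of edgeR, the spread beyond counting error, had a median of 0.257, 0.177, 0.131 and 0.120 in these classes. Counting error alone would give 0.116, 0.0537, 0.0273 and 0.0135. The spread between cultures thus exceeded counting error at every level, and by a larger factor at high levels.

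**Figure D2:**
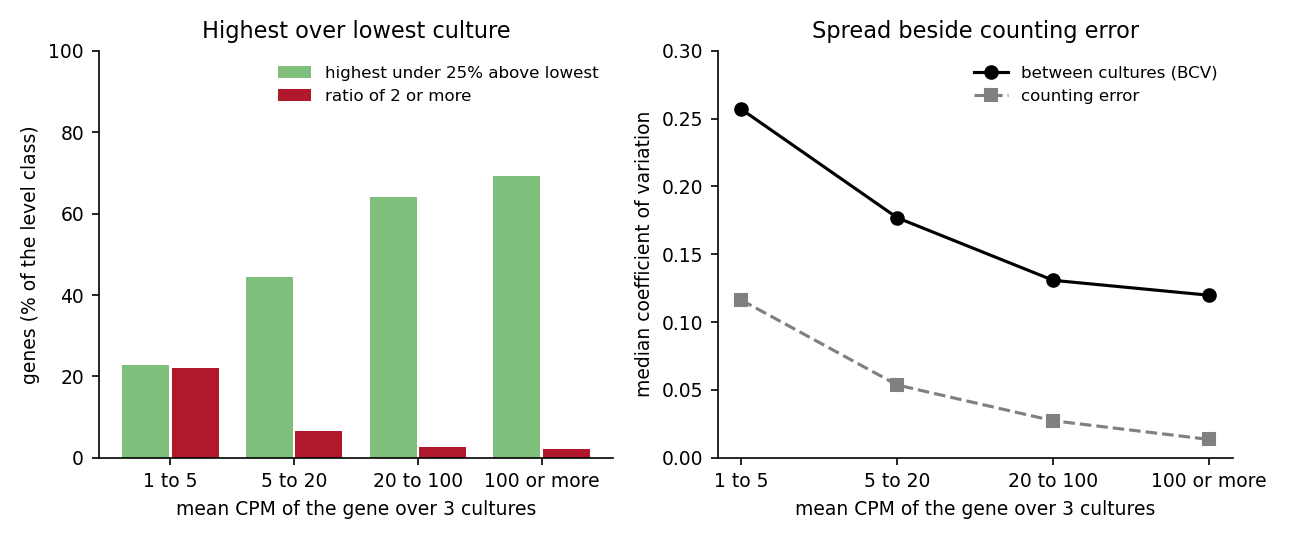
Left, the percentage of genes in 4 classes of mean CPM whose highest culture was under 25% above the lowest (green) or 2 times the lowest or more (red). Right, the median biological coefficient of variation (BCV, black) and the median coefficient of variation from counting alone (grey) in the same classes. The red bars fall from 22.1% to 2.13%, and the black line stays above the grey at each level.

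Most large differences involved culture 2. It was the highest or the lowest culture for 860 of the 1026 genes. Over all genes tested it was highest for 34.7% and lowest for 38.2%, so a high share is usual with 3 cultures. Cultures 1 and 2 differed by 2 times or more in 666 genes (4.85%), cultures 2 and 3 in 618 (4.5%), and cultures 1 and 3 in 302 (2.2%). Culture 2 lay 2 times or more above both others in 181 genes (1.32%) and below both in 159 (1.16%). Culture 1 lay above both in 30 (0.218%) and below both in 84 (0.611%), and culture 3 above both in 42 (0.306%) and below both in 65 (0.473%). In all, 520 genes had a culture apart in this way, and for 41 of them each culture was 2 times or more from the next, so that they count for both ends. Without culture 2, 291 genes differed by 2 times or more. Culture 2 also had the lowest share of reads outside exons (14.6%, beside 17.5% and 17.1%) and the highest summed level of endothelial markers, and the part of either in these counts was not tested.

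**Figure D3:**
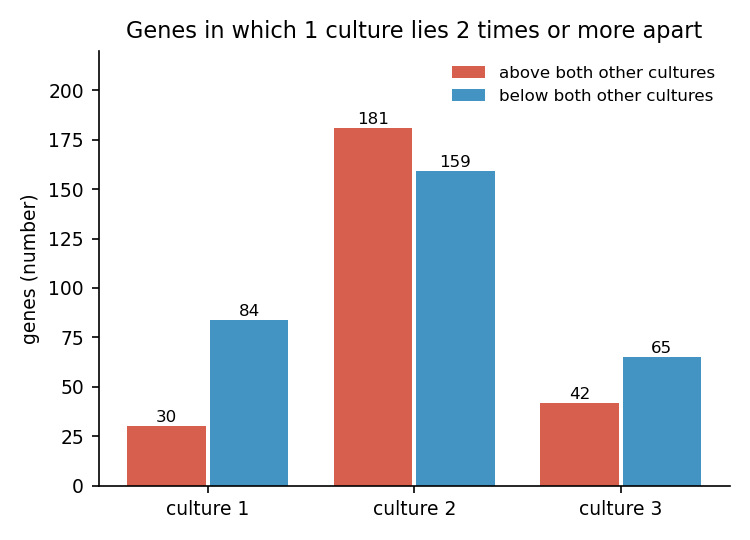
Number of genes in which a culture lay 2 times or more above (red) or below (blue) both other cultures, among genes with a mean of at least 1 CPM. Culture 2 has the tallest bars, 181 and 159 genes, and culture 1 has 30 above and 84 below.

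Genes of the interferon response were lowest in culture 2, 24 of 24 listed, beside 38.2% of all genes tested. These genes are switched on when the sensors of foreign RNA or the interferon receptor signal through STAT and IRF factors, which bind a promoter element called ISRE. Since the group moved together, RefSeq promoter windows (GRCm38.p6, from 250 bases before to 50 after the start) of 4 members are shown, on the gene's strand, with each match to the ISRE letters (GAAA, any 2 bases, GAAA) on either strand in capitals. Matches that overlap, as in Isg15, are counted each. Where a gene has several windows, that with the most matches is shown. Ifit1 lies at chr19:34640639-34640938, Ifit3 at chr19:34583279-34583578, Isg15 at chr4:156200769-156201068 and Rsad2 at chr12:26456403-26456702.
Ifit1: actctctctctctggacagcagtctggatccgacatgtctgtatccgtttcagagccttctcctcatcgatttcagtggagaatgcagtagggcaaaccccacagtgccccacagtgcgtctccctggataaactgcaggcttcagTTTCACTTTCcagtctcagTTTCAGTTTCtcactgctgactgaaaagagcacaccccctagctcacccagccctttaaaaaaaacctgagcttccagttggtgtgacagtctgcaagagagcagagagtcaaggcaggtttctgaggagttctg
Ifit3: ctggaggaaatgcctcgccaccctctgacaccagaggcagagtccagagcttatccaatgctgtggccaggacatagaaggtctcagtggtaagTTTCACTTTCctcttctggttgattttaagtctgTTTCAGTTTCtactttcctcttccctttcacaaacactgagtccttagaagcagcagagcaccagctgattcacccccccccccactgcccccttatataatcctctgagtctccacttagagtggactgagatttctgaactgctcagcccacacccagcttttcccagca
Isg15: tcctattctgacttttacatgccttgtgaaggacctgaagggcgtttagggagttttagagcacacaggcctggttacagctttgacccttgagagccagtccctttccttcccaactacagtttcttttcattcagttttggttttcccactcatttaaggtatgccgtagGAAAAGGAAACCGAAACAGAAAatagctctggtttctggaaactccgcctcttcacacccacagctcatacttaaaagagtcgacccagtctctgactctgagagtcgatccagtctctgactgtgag
Rsad2: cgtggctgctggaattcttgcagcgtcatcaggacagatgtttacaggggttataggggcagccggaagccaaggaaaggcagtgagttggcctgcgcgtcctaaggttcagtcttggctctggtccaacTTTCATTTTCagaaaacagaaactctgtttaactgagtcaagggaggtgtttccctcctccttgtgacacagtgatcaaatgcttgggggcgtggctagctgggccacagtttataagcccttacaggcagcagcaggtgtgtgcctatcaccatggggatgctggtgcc
The first match in Ifit1 begins 104 bases before the start and the second 85 bases before it. Isg15 holds 3 overlapping matches between 78 and 66 bases before its start. Of the 17 members with a window, 11 held the letters in any window (64.7%), beside 3.62% of genes tested and 3.99% of all genes with a window. Of the 104 genes with a window in which culture 2 lay below both others, 39 did (37.5%), and of the 133 in which it lay above, 4 did (3.01%). The list is of known interferon-response genes, so a high share in it was largely set in advance. Culture 2 lay below both others for 19 of the 24 members, so these sets overlap and are not separate support. The letters were chosen after the levels were seen, and a match is not a binding site.

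Effectors of the response differed by several times. Ifit1, which binds viral RNA, held 110.2, 22.01 and 120.1 CPM, and Ifit3 27.6, 5.15 and 54.5 CPM. Rsad2, or viperin, held 23.8, 4.96 and 35.5 CPM. Culture 2 was the lowest for each, at a ratio of 5.46 (95% interval 5.03 to 5.93) for Ifit1, a ratio of 10.6 (95% interval 9.01 to 12.5) for Ifit3 and a ratio of 7.17 (95% interval 6.05 to 8.54) for Rsad2, with culture 3 the highest. Ifit3 shares 41.1% of its 75-base windows with another gene, so its value is uncertain. Oas2, which makes the activator of RNase L, held 7.800, 1.49 and 18.8 CPM, and the 3 cultures were each 2 times or more from the next. Isg15, a ubiquitin-like modifier, held 68.98, 24.6 and 86.1 CPM, and Usp18, which removes it, held 54.6, 17.9 and 66.6 CPM. The order of cultures was the same for both.

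Sensors and transcription factors of the pathway were lowest in culture 2 as well. Ifih1, an RNA sensor, held 57.6, 23.3 and 70.4 CPM, and Ddx58, or RIG-I, held 195, 99.2 and 191 CPM. Irf7, the factor that sustains the response, held 66.7, 21.4 and 104 CPM. Culture 3 was highest for 22 of the 24 listed genes, beside 26.5% of all. Ddx58 was highest in culture 1, but in culture 3 with TMM scaling. A ratio of 2 or more was reached by 21 of 24, and culture 2 lay 2 times or more below both others for 19, beside 1.16% of all genes tested. The exceptions to the first were Ifit2, Irf9 and Ddx58, at ratios of 1.58 to 1.97. Without culture 2, 2 of the 24 differed by 2 times or more. Genes outside the list that were chosen for their gap to the other cultures included Trim30a, an interferon-induced ubiquitin ligase (32.2, 5.11 and 65.4 CPM), and Nlrc5, which switches on MHC class I genes (6.24, 0.858 and 10.2 CPM). Both were lowest in culture 2. The siRNA-sensing genes Tlr3 (21.6, 8.55 and 23.7 CPM) and Eif2ak2, or PKR (151, 73.4 and 150.4 CPM), were lowest there too. So was Ago2, which loads siRNAs, by less than 2 times (335, 275 and 329 CPM). Culture 2 was lowest for 8 of the 11 RNA interference genes listed, beside 38.2% of all genes tested.

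Macrophage genes did not share this order, since they were lowest in culture 1 (22.8, 59.9 and 63.9 CPM summed). H2-K1, an MHC class I chain that presents peptides to T cells, was highest in culture 3 and held 119.7, 106 and 272 CPM, at a ratio of 2.58 (95% interval 2.47 to 2.68). B2m, its partner chain, held 651, 391 and 766 CPM and was also highest in culture 3 and lowest in culture 2. Cxcl10, a chemokine induced by interferon, held 10.6, 3.84 and 18.5 CPM, in the same order as Ifit1.

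**Figure D4:**
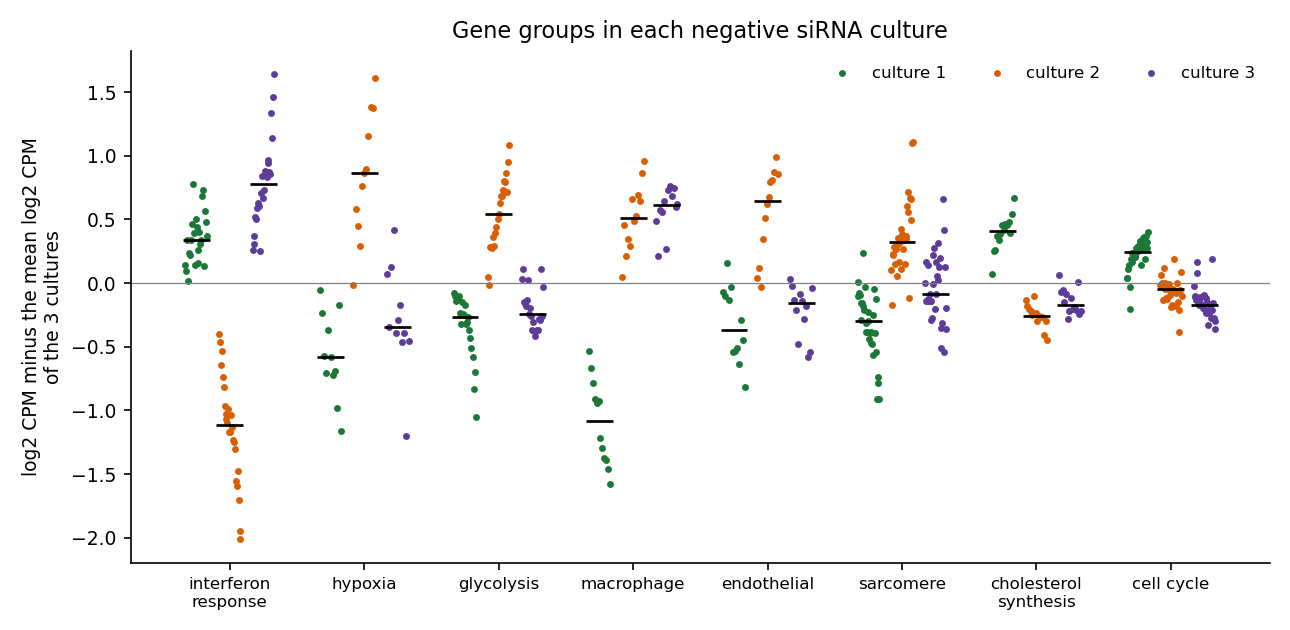
Log2 CPM of each gene minus its mean log2 CPM over the 3 cultures, for the members of 8 lists with a mean of at least 1 CPM, with 1 point per gene and culture and the median as a black bar. In the interferon list all 24 points of culture 2 lie below 0, and in the macrophage list all 12 points of culture 1 do. In the cell cycle list no gene reaches a ratio of 2 between cultures.

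The opposite pattern, highest in culture 2, held for genes of the response to low oxygen. When oxygen falls, the factor HIF is no longer destroyed and binds promoters at an element with the core ACGTG. Windows of 2 members are shown as above, with the core in capitals on either strand. Bnip3 lies at chr7:138909457-138909756 and Slc2a1 at chr4:119108495-119108794.
Bnip3: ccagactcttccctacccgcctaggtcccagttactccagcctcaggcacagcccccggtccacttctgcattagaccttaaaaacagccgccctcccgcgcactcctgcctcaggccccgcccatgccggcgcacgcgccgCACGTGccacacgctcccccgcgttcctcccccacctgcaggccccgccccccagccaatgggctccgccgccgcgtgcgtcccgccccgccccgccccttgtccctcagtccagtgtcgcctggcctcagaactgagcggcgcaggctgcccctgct
Slc2a1: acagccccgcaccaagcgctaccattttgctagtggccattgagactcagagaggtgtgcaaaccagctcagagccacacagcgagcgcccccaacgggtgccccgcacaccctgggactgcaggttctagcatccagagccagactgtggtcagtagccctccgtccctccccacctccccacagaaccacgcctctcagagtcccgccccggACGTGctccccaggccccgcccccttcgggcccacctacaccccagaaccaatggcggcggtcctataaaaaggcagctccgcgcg
The palindrome in Bnip3 counts as a match on each strand, 108 and 107 bases before the start, and that of Slc2a1 begins 36 bases before it. The core was found in 7 of 10 hypoxia members with a window (70%), beside 29.5% of genes tested and 21.8% of all genes with a window. Among genes for which culture 2 lay above both others 35.3% held it, and 14.4% where culture 2 lay below. The list is of known genes of this response, so a high share in it was largely set in advance. Culture 2 lay above both others for 7 of the 11 members, so these sets overlap. So short a core is common in promoters of all kinds.

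Bnip3, a mitochondrial protein that promotes mitophagy, held 7.55, 51.7 and 12.4 CPM. Egln3, an oxygen sensor that marks HIF for destruction, held 16.4, 84.5 and 24.7 CPM, and Vegfa, the growth factor of blood vessels, held 123, 379 and 181 CPM. Culture 2 was far above the others in each, at a ratio of 6.84 (95% interval 6.01 to 7.81) for Bnip3 and a ratio of 5.15 (95% interval 4.71 to 5.64) for Egln3. Pdk1, which closes the path from pyruvate to mitochondria, held 21.3, 76.1 and 24.8 CPM, and Slc2a1, the glucose carrier GLUT1, held 72.2, 197 and 88.2 CPM. Adm, adrenomedullin, held 21.8, 43.4 and 47.4 CPM, and here culture 1 was low rather than culture 2 high. Of the 11 genes, 9 differed by 2 times or more (7.47% of all genes), and culture 2 lay 2 times or more above both others for 7 (1.32% of all). Pfkfb4 was alike and Pfkfb3 had a ratio of 1.90. Without culture 2, 2 of the 11 differed by 2 times or more.

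Further genes outside the list went the same way. Ndufa4l2, a HIF target of the respiratory chain, held 0.3900, 42.3 and 1.795 CPM, at a ratio of 108 (95% interval 64.4 to 199). Slc16a3, the carrier that exports lactate, held 54.3, 279 and 73.9 CPM. Culture 1 was lowest for both, and for Ndufa4l2 each culture was more than 2 times from the next. Both were named for their gap to the other cultures.

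Genes of glycolysis and glucose uptake were highest in culture 2 for 20 of 21, beside 34.7% of all genes, and 9 differed by 2 times or more, beside 7.47%. Without culture 2, 1 of the 21 did. Ldha, which turns pyruvate into lactate, held 260.0, 558 and 260.4 CPM. Pfkl, a subunit of the committing kinase, held 75.1, 236 and 102 CPM, and Tpi1, triose phosphate isomerase, held 153, 359 and 159 CPM. Cultures 1 and 3 were close for Ldha and Tpi1, and culture 2 was more than 2 times above them. Hk1, Hk2 and Slc2a3 had ratios of 1.35, 1.36 and 1.09. Gapdh, the exception, held only 7.24, 7.69 and 8.37 CPM, and Pgk1 16.7, 41.1 and 19.5 CPM. Of their 75-base windows 22.6% and 52.8% also occur in another gene, so both levels are uncertain. Of 21 nuclear genes of oxidative phosphorylation, 11 were alike (51.5% of all genes were) and 4 differed by 2 times or more (7.47% of all). Culture 2 was highest for 14 of them and culture 3 lowest for 16, beside 34.7% and 35.3% of all. Atp5b, of ATP synthase, held 743, 777 and 665 CPM. The 4 that differed, Cox4i2, Cox6a2, Cox7a1 and Cox8b, encode tissue-restricted subunits of cytochrome oxidase. Cox4i2 held 0.362, 3.11 and 0.6104 CPM and Cox6a2 held 2.67, 4.07 and 6.97 CPM, highest in cultures 2 and 3 respectively. Slc2a4, the insulin-responsive carrier, held 2.26, 6.61 and 4.34 CPM.

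**Figure D5:**
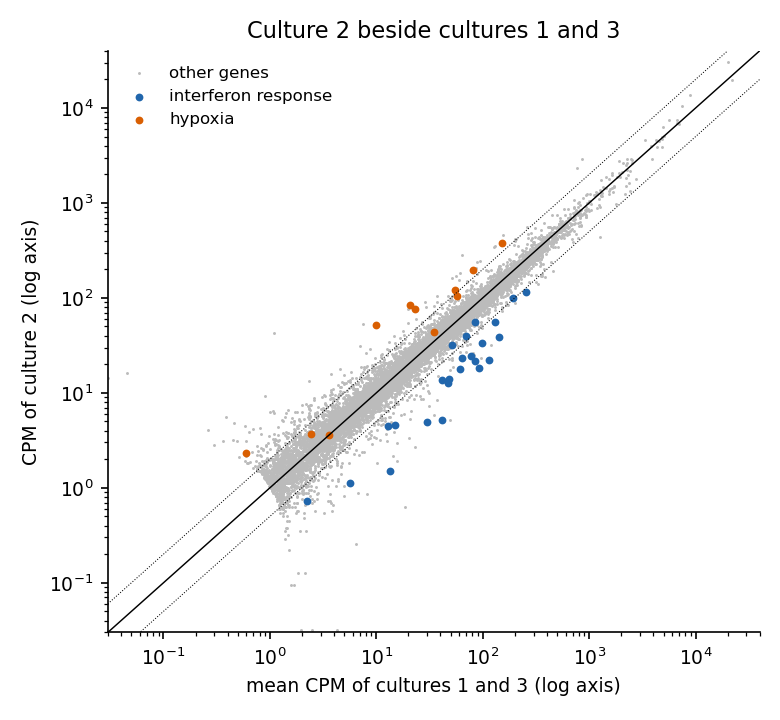
CPM of culture 2 against the mean CPM of cultures 1 and 3, both on log axes, for genes with a mean of at least 1 CPM, with equality as a solid line and 2 times above or below it as dotted lines. Interferon genes (blue) lie below the solid line, 24 of 24, and most hypoxia genes (orange) lie above it.

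Some imprinted growth genes were also highest in culture 2. H19, a non-coding RNA expressed from the maternal copy, held 862, 2869 and 848 CPM, at a ratio of 3.38 (95% interval 3.33 to 3.43). Its neighbour Igf2, a fetal growth factor, held 946, 2307 and 593 CPM, and Dlk1, a Notch-like surface protein, held 172, 359 and 225 CPM. Peg10, a paternally expressed gene of retroviral origin, went to culture 1 instead, with 217, 79.7 and 88.04 CPM (a ratio of 2.73 (95% interval 2.61 to 2.85)). Of 18 tested, 4 differed by 2 times or more and 5 were alike, beside 7.47% and 51.5% of all genes, and the median ratio was 1.35, beside 1.24. Among the alike were Grb10 (1652, 1981 and 1646 CPM) and Ndn (89.7, 84.5 and 81.2 CPM), while Peg3 (704, 864 and 553 CPM) and Plagl1 (749, 1014 and 858 CPM) were highest in culture 2 and Meg3 (574, 505 and 756 CPM) in culture 3, each by less than 2 times. Igf2 shares 60.3% of its 75-base windows with another annotated gene, so its level is uncertain.

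Culture 1 carried more RNA of cholesterol synthesis. It was highest for 14 of 14 genes of the pathway (13 of 14 with TMM scaling), beside 38.9% of all genes tested. Insig1, which holds the sterol sensor in the endoplasmic reticulum, held 114, 52.3 and 61.3 CPM and was the only one past a ratio of 2 (7.47% of all genes were). Hmgcs1, an early enzyme, held 303, 183 and 190.3 CPM, and Cyp51, a sterol demethylase, held 212, 126 and 131 CPM. Culture 1 was above the others in both, by less than 2 times. The sterol element TCACNCCAC was found in 1 of 9 members with a window (Hmgcs1), beside 1.44% of all genes with a window. Culture 1 was also highest for 25 of 30 cell cycle genes, beside 38.9% of all genes, and culture 3 lowest for 21, beside 35.3%. None of the 30 differed by 2 times or more (7.47% of all genes did). Only 5 were alike, beside 51.5% of all genes, and the median ratio of the 30 was 1.38, beside 1.24. Mki67 held 319, 223 and 228 CPM, Top2a, a topoisomerase of dividing cells, held 241, 186 and 167 CPM, and Ccnd2, a cyclin, held 1595, 1486 and 1831 CPM, the last highest in culture 3.

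Culture 3 stood above both others in 42 genes. Thbd, the thrombin receptor thrombomodulin, held 72.1, 84.2 and 261 CPM, at a ratio of 3.62 (95% interval 3.46 to 3.79). Lama2, a laminin chain of muscle basement membrane, held 17.2, 20.4 and 45.6 CPM. Cwc22, a splicing factor, held 59.6, 23.2 and 132 CPM, with each culture 2 times or more from the next. Low in culture 3 were Fst, the activin antagonist follistatin (68.5, 93.5 and 30.2 CPM), Car3, a carbonic anhydrase (8.52, 12.99 and 2.800 CPM), and Tpm3, a cytoskeletal tropomyosin (105, 133 and 52.3 CPM). For these 3 genes culture 2 was the highest.

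Some of the widest ratios came from processed pseudogenes, copies of spliced RNA in the genome. Rps3a3, a copy of a ribosomal protein gene, held 0.167, 20.4 and 27.1 CPM. Gm8420 held 0.0557, 16.4 and 0.0359 CPM, and Gm11942 held 17.2, 0.635 and 19.8 CPM. Culture 1 was near 0 for Rps3a3 and culture 2 for Gm11942, whereas Gm8420 was read almost only in culture 2. Of the 75-base windows of Rps3a3, 45.4% also occur in another gene, as do 8.78% for Gm8420 and 14.8% for Gm11942. In Gm8420 the 2 low cultures rest on 2 and 1 counts, which gives a ratio of 456 (95% interval 81.4 to 18032). Pseudogenes made up 4.87% of genes past a ratio of 2 and 6.73% of all genes tested.

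Of 13 DNA methylation genes tested, 8 were alike and 0 differed by 2 times or more, shares near those of all genes (51.5% and 7.47%) for so short a list. Dnmt1, which copies methylation to new DNA strands, held 165, 127 and 133 CPM, or 19.2 ± 2.73 CPM/kb. Dnmt3a, which places new marks, held 232, 263 and 267 CPM (15.3 ± 1.14 CPM/kb), and its relative Dnmt3b only 4.32, 4.16 and 4.201 CPM (0.828 ± 0.01596 CPM/kb). Dnmt1 exceeded Dnmt3a per kb in each culture, with 22.3, 17.2 and 18.01 against 13.96, 15.8 and 16.03 CPM/kb. In CPM Dnmt3a was the higher in each culture, so this order rests on the exon lengths used. Whether it holds with other transcript lengths was not tested.

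The immediate early, heat shock, endoplasmic reticulum stress, p53 target and adhesion lists also had 0 genes past a ratio of 2. Most of these lists spread as much as other genes or more. Alike were 10 of 19 immediate early genes, 3 of 10 heat shock genes, 4 of 12 genes of endoplasmic reticulum stress, 3 of 11 p53 targets and 2 of 8 adhesion genes, beside 51.5% of all. Their median ratios were 1.22, 1.37, 1.296, 1.39 and 1.43, beside 1.24. Culture 3 was highest for 9 of the 11 p53 targets and culture 2 lowest for 9, beside 26.5% and 38.2% of all genes. Trp53inp1, a p53-induced nuclear protein, held 181, 136 and 242 CPM, and Ccng1, a cyclin, held 727, 574 and 876 CPM. Fos held 47.7, 35.4 and 31.4 CPM, Hsp90ab1, a chaperone, held 1344, 1485 and 1339.7 CPM, and Cdkn1a, the cell cycle brake p21, held 316, 285 and 379.8 CPM. Their ratios were 1.52, 1.11 and 1.33.

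X- and Y-linked transcripts were both read in every culture. Xist, the RNA that coats the inactive X, held 471, 342 and 551 CPM, and Ddx3y, a Y-linked helicase, held 60.1, 53.7 and 50.5 CPM. Each culture therefore held RNA of both sexes, and Ddx3y varied by a ratio of 1.19.

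The steadiest genes of at least 20 CPM were alike to within counting error. Chmp7, a subunit of a membrane-remodelling complex, held 49.98, 50.1 and 49.98 CPM, and Chd4, a chromatin remodeller, held 533, 535 and 532 CPM. Ap3b1, of a vesicle coat, held 95.4, 95.6 and 95.8 CPM. The interval of the ratio held 1 for each of them. They were named by rank among many genes, which by itself brings out values this close. Of 17 genes often used as references, 12 were alike, beside 51.5% of all genes and 69.2% of those at 100 CPM or more. They included Actb, Hprt, Gusb and Sdha, while B2m reached a ratio of 1.96 and Ppia and Pgk1 exceeded 2. Actb held 4160.2, 4631 and 4239 CPM and Hprt 49.2, 53.1 and 48.5 CPM.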

How the data were processed

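RNA-Seq was read from the 3 negative siRNA samples, grouped by title. As given in the labels, poly(A) RNA libraries were made with the NEBNext mRNA kit, and the submitters' processing notes name FastQC, TopHat2 and HTSeq with the mouse builds mm10 and GRCm38. The authors deposited raw counts per Ensembl gene, 1 file a sample, with no normalization. Reads placed more than once were given to no gene, which lowers genes with near-identical copies. The counter's totals were left out of library sizes, as were the DNMT1 siRNA files.

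CPM was the count divided by the total on genes (27852412 to 35896018), and CPM/kb was CPM divided by the union of exons in GENCODE M21 (GRCm38), newer than the authors' annotation and holding 42548 of 43629 genes. Spread was the highest over the lowest CPM at a mean of at least 1 CPM, a lowest count of 0 being set to 3, with an exact Clopper-Pearson interval, and the biological coefficient of variation came from edgeR 4.0.16 (R 4.3.3, TMM, intercept only). PCR reads are not independent molecules, so intervals cover counting error only. A shared window is a run of 75 bases in a gene's transcripts that also occurs in another gene's. Steps were checked on simulated counts. Python 3.11.15, pandas 2.3.3 and scipy 1.17.1 were used.

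Named genes were members of 41 lists, and the 15 of highest CPM and CPM/kb (the latter at 300 bases of exon or more). Also named were up to 10 per culture and direction at 5 CPM or more, by their gap to both other cultures. The 10 of lowest SD of log2 CPM at 20 CPM or more were named too. The lists and the cultures were chosen with earlier results of these data known, and motifs after the levels were seen. Alternatives were other scaling, floors, thresholds, annotation classes, thinning of counts and leaving out each culture.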

Additional observations from a re-analysis of the deposited data

How the results depend on the processing

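Most counts depended on the floor and the threshold, and little on scaling. The 1026 genes that differed by 2 times or more became 422 at a mean of at least 5 CPM and 9756 with no floor, 2850 at a ratio of 1.5 and 347 at a ratio of 3. With each culture left out in turn they ranged from 291 to 661, the lowest without culture 2. The 520 genes with a culture apart became 799 at 0.5 CPM, 209 at 5 CPM and 6077 with no floor, and they could not be counted from 2 cultures. The median biological coefficient of variation of 0.155 was 0.1546 with RLE factors, 0.141 at 5 CPM and 0.0990 without moderation, and 0.133 to 0.174 with a culture left out. The count of alike genes and of genes at the floor stayed within 1.5 times under every alternative run. Of 549 named genes, 156 differed by 2 times or more. TMM scaling took 2 of these below the limit, and leaving out culture 1, 2 or 3 took 55, 92 or 38. No paired analysis was possible because only 1 group is described. Genes at 1 to 5 CPM rest on few counts, and multi-mapped genes read too low.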

Other observations

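Of 10 chemokine and cytokine genes tested, 6 differed by 2 times or more (5 with TMM scaling), beside 7.47% of all genes. With culture 1, 2 or 3 left out, 3, 3 or 2 of the 10 did. Culture 3 was highest for 8 of them and culture 2 lowest for 7 (6 with TMM scaling), beside 26.5% and 38.2% of all. Ccl7, a chemokine that draws monocytes, held 9.75, 15.9 and 21.6 CPM, and Saa3, an acute phase protein, held 2.12, 3.304 and 5.21 CPM. Both were highest in culture 3. Cxcl12, a chemokine that guides cells to forming vessels, held 1957, 964 and 1585 CPM and was highest in culture 1. Ptgs2, the inducible enzyme of prostaglandin synthesis, held 44.6, 85.4 and 35.7 CPM and was highest in culture 2. Spp1, osteopontin, held 5.098, 26.5 and 11.02 CPM, the only 1 of 30 matrix genes tested past a ratio of 2 (7.47% of all genes were). Among nuclear non-coding RNAs, Neat1, the scaffold of paraspeckles, held 428, 166 and 337 CPM, and Malat1 held 2090.5, 1799 and 3403 CPM. Culture 2 was lowest for both. Of 16 receptors listed, Ednrb, an endothelin receptor, was the only 1 past a ratio of 2, with 2.56, 8.77 and 2.66 CPM, a share near that of all genes, and 5 were alike. Igf1r, a growth factor receptor, held 209, 179 and 211 CPM, and Insr, the insulin receptor, 111, 129.7 and 139 CPM.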
